A study of Mus musculus with 8 samples.

Results

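The transcription factors that specify the heart and switch on its muscle genes were followed here in hearts of late mouse embryos labelled wild type or knockout for SIRT1, an NAD-dependent protein deacetylase. The 10 genes are *Gata4*, *Gata6*, *Nkx2-5*, *Tbx5*, *Tbx20*, *Hand1*, *Hand2*, *Mef2c*, *Srf* and *Myocd*. They were taken by name, by a rule that uses no measured value although earlier results of these data were known, and every array probe whose accession maps to one of them was kept. This gave 18 probes of 41174, and 10 of the 19096 genes with a named probe. All 18 were well above background on all 8 arrays, by the scanner software's own call, and all 18 were tested.

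RNA came from whole hearts of 4 wild-type (WT) and 4 whole-body germ-line SIRT1 knockout (SIRT1 KO) embryos, labelled C57BL/6, at E18.5, shortly before birth, with 1 heart on each one-color Agilent array. Per the study's methods the embryos came from crosses of heterozygous parents and both sexes were used, so the knockout was designed to affect every tissue and not only the heart muscle. The labels give chow as the diet. The comparison asks whether the transcripts of the cardiac program differ between these genotypes.

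GATA factors, NKX2-5 and the T-box factors bind cardiac enhancers together and activate one another's genes, and the loss of any of several of them in mice stops heart development at the stage of the tube or the chambers. SRF binds the CArG box, a short A/T-rich element between CC and GG, and uses myocardin (*Myocd*) as its coactivator on muscle genes. By late gestation the chambers are formed and these factors keep up the expression of sarcomere, ion channel and natriuretic peptide genes.

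SRF also acts on its own gene, and the letters of that element can be read in its promoter. The stretch shown is the minus strand of chr17:46556163-46556282 (GRCm38.p6, sequence from RefSeq), the 120 bases before the start of *Srf*, with CArG boxes in capitals.
*Srf* promoter: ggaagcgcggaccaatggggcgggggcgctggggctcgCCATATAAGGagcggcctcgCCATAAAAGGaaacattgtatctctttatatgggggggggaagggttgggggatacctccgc
The 2 boxes begin 82 and 62 bases before the start. Promoters of 250 bases before and 50 after the start were given for 5 of the 10 factors (*Hand2*, *Tbx20*, *Mef2c*, *Nkx2-5* and *Srf*), 7 promoters in all, and *Srf* alone among these 5 had a CArG box, which 1.63% of all 32851 promoters held. A match describes the letters and is not evidence of binding.

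The same element is printed for SRF targets, since their levels are given below beside those of SRF. Of 24 smooth-muscle and cytoskeletal SRF targets listed from general knowledge, 19 had a promoter and 5 of these a CArG box, shown with 10 bases on each side. The intervals are chr8:123894829-123894858 (minus strand) for *Acta1*, chr11:120348566-120348595 (minus) for *Actg1*, chr10:79988534-79988563 (plus) for *Cnn2*, chr2:156775293-156775322 (plus) for *Myl9* and chr14:20929161-20929190 (plus) for *Vcl*, all GRCm38.p6.
*Acta1*: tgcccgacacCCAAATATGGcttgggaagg
*Actg1*: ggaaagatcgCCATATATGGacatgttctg
*Cnn2*: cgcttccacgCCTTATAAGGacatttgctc
*Myl9*: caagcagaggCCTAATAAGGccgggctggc
*Vcl*: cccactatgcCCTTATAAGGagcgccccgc

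Signals are given as log2 of the processed intensity of the probe minus the 75th percentile of its array, so that 0 is the level of a fairly bright probe. Such levels are compared between hearts for one probe and never between probes. The 75th percentile was 939 to 1033 intensity units for WT and 777 to 906 for SIRT1 KO, no spot was saturated, and the number of arrays limits the precision. All WT arrays lie on 1 slide and all SIRT1 KO arrays on another that was scanned on a different day. Effects of genotype, slide and scan day therefore cannot be told apart. The brighter *Sirt1* probe was higher, not lower, in the hearts labelled SIRT1 KO (log2 fold change 0.54, standard error or SE 0.12, limma adjusted p = 0.0323), and the other was -0.11 (SE 0.11, limma adjusted p = 0.589). The call on the brighter probe rests on the settings, since it passed in 10 of 22 alternatives and with 2 of the 8 hearts left out singly (WT replicate 2 and SIRT1 KO replicate 3). It was lost with median scaling (limma adjusted p = 0.0608), without scaling (0.32, limma adjusted p = 0.117), with no filter on dim probes (limma adjusted p = 0.0679) and by the methods' t-test (adjusted p = 0.0865). Where these probes lie relative to the deleted part is not given in the sources used here, so they do not check the genotype, and SIRT1 KO below means the hearts that carry this label.

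No factor changed past the threshold between the genotypes. Of the 18 probes 0 had an adjusted p under 0.05 by limma with Benjamini-Hochberg adjustment over all tested probes, where 4.88% of the 25616 tested probes did (1250 probes, 3.97% higher and 0.91% lower in SIRT1 KO). At an unadjusted p under 0.05 there was 1 of 18, the dimmer *Gata4* probe, against 21.5% of all tested probes. The methods' t-test, an analysis of variance with genotype as its only factor, also gave 0 after adjustment and 1 before it, where 2.13% and 20.1% of all tested probes passed. Of the 18 probes 7 were higher and 11 lower in the SIRT1 KO hearts, with log2 fold changes from -0.35 to 0.20 and a median of -0.02, where the median of all tested probes was 0.01.

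The intervals bound what these hearts allow. For 16 of the 18 probes the 95% confidence interval (CI) of the fold change lay within 1.5-fold in either direction, and for all 18 within 2-fold. Most probes of the array did the same, with 19769 of the 25616 tested probes within 1.5-fold and 23834 within 2-fold. The lowest bound of any probe was 0.66 of the WT level and the highest was 1.48 of it. The brightest probe of each of the 10 genes kept within 1.5-fold, as did 11145 of all 13594 named genes. The direction of these small changes rests on the scaling, and the SIRT1 KO arrays were dimmer as a whole. With no scaling between arrays all 18 probes were lower, with a median of -0.24, and the median of all tested probes was then -0.21. Median scaling left 2 probes higher and 16 lower, with a median of -0.15 against -0.12 over all tested probes.

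**Figure D1:**
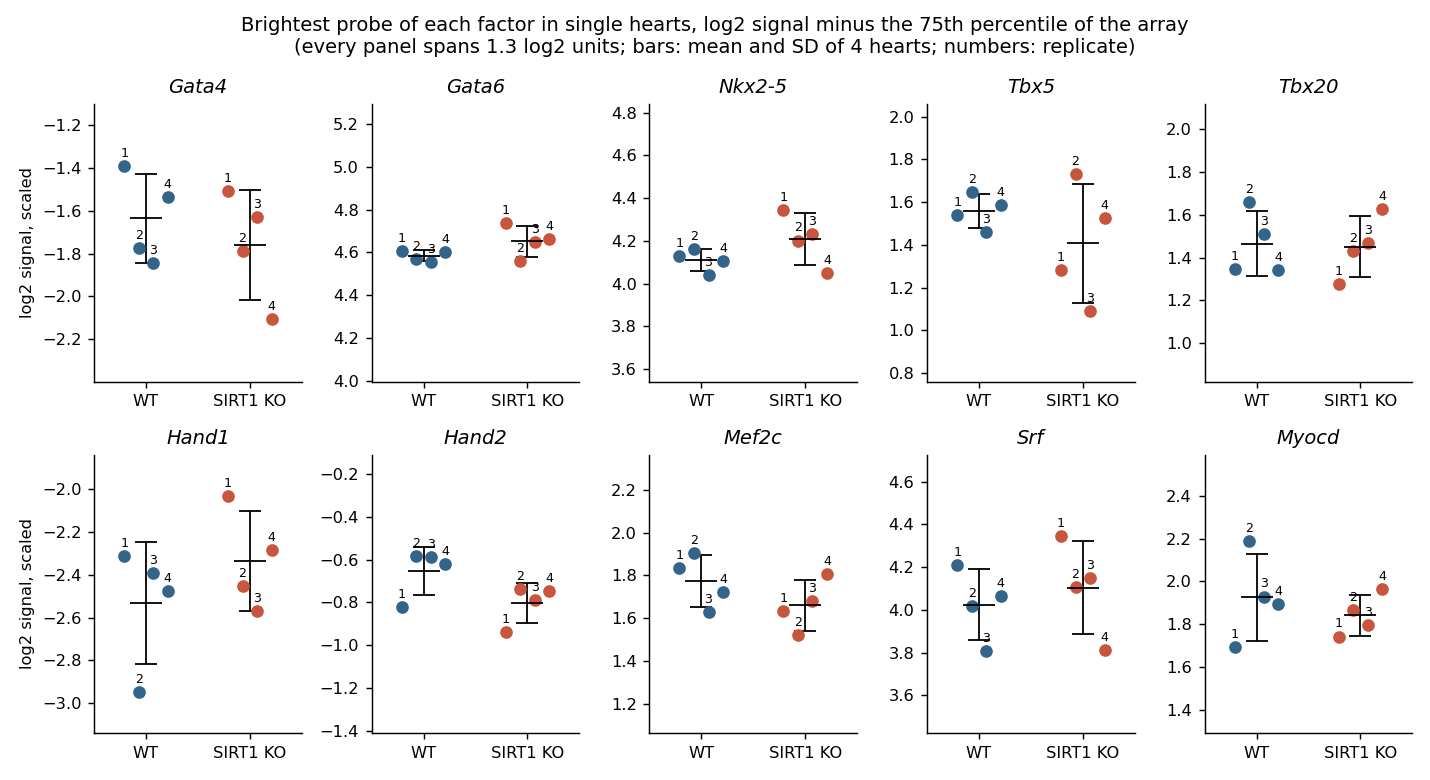
Log2 signal of the brightest probe of each of the 10 factors, minus the 75th percentile of the array, in each of 4 WT (blue) and 4 SIRT1 KO (red) hearts. Points are single hearts numbered by replicate, bars the mean and SD, and every panel spans 1.3 log2 units; the genotypes overlap for all 10 genes.

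*Gata4* codes for a zinc-finger activator needed for the ventral heart tube and for muscle cell proliferation. On its brightest probe (A_51_P492355) the 4 WT hearts read -1.39, -1.77, -1.84 and -1.53 and the 4 SIRT1 KO hearts -1.51, -1.79, -1.63 and -2.10, in order of replicate. Both genotypes covered nearly the same range, apart from SIRT1 KO replicate 4, which was the lowest of the 8. The log2 fold change was -0.12 (SE 0.15, 95% CI -0.46 to 0.21, limma adjusted p = 0.67).

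The second *Gata4* probe (A_52_P4201) was the only one of the 18 on which the genotypes did not overlap, a pattern that 13.7% of all probes with a value on every array showed and 5.09% showed with the SIRT1 KO hearts lower. Its values were -3.70, -4.19, -3.98 and -4.12 in the WT hearts and -4.29, -4.41, -4.26 and -4.40 in the SIRT1 KO hearts. All 4 SIRT1 KO hearts were below the lowest WT heart, some of them only just, and WT replicate 1 stood highest. The log2 fold change was -0.35 (SE 0.11, 95% CI -0.60 to -0.095, limma adjusted p = 0.12), and the exact two-sided permutation test gave p = 0.0286, the smallest that 4 against 4 allow.

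This probe is dim and is spotted 10 times on each array, which shows the error within an array directly. Between 8 and 10 spots were used per array after outliers were left out, and their SD on the log2 scale was between 0.11 and 0.28. The standard error of an array's mean was thus between 0.037 and 0.090. The mean processed intensity was 54.1 to 80.6 units on the WT arrays and 40.9 to 46.6 on the SIRT1 KO arrays, beside a local background of 46.1 to 55.8 and 43.4 to 47.9 units. Corrected for background with normexp, a model that does not subtract to near 0, the same spots gave -3.10 to -2.85 in the WT hearts and -3.08 to -2.82 in the SIRT1 KO hearts. The genotypes then overlapped throughout and the log2 fold change was -0.0032 (limma adjusted p = 0.985), whereas quantile normalization gave -0.51 (limma adjusted p = 0.0494, where 4.12% of all probes passed) and median scaling -0.48 (limma adjusted p = 0.0454, where 7.43% passed).

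**Figure D2:**
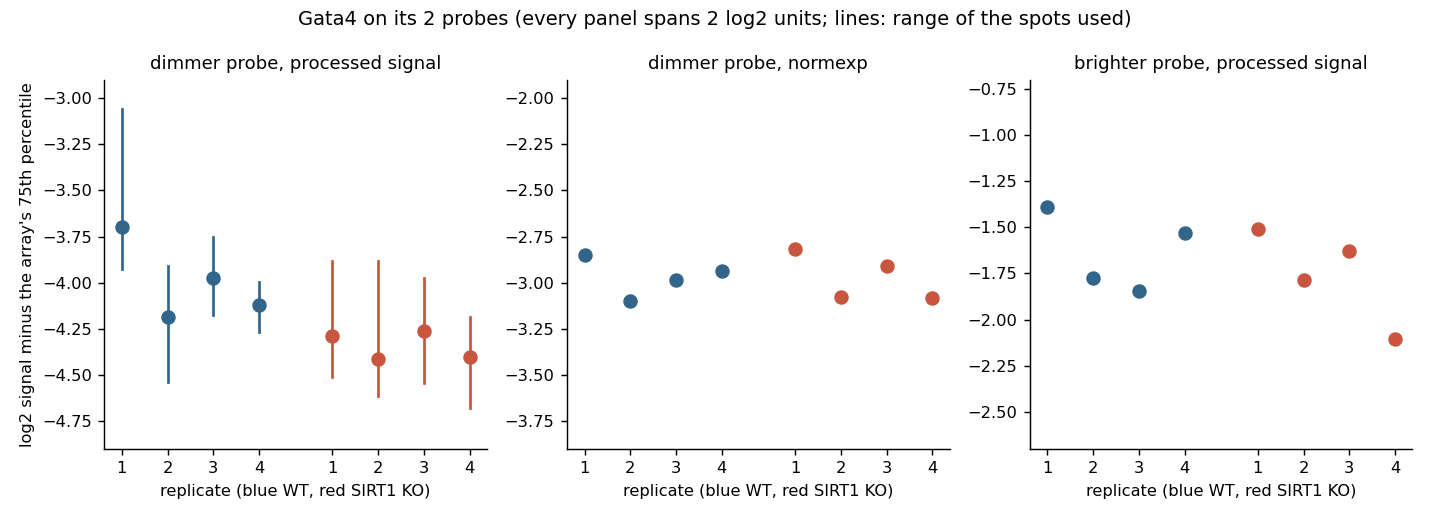
*Gata4* in each heart on the dimmer probe with the processed signal (left; points are the mean of 8 to 10 spots and lines their range), on the dimmer probe after normexp (middle) and on the brighter probe (right). The axis is log2 signal minus the 75th percentile of the array, and each panel spans 2 units. The red SIRT1 KO points lie below all blue WT points in the left panel only.

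The 2 *Gata4* probes differed in their change by 0.22 on the log2 scale, which was within the spread between hearts (exact two-sided permutation test p = 0.171, adjusted p = 0.457 over 8 such pairs of probes). The 3 genes whose brightest probe was most like the dim *Gata4* probe across the 8 hearts, of 13535 genes compared, were *Galm* (Pearson r = 0.987), *Itgb1bp1* (r = 0.986) and *Cul2* (r = 0.977). They share the arrays and the genotype difference with it, and their own log2 fold changes were -0.32, -0.24 and -0.18, none past the threshold.

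*Gata6*, a close relative that acts with GATA4 in heart muscle and also in endoderm and smooth muscle, varied the least among hearts. Its brightest probe (A_51_P411917) read 4.61, 4.57, 4.56 and 4.60 in the WT hearts and 4.74, 4.56, 4.65 and 4.66 in the SIRT1 KO hearts. The WT hearts lay close together, and SIRT1 KO replicate 1 was the highest. SIRT1 KO exceeded WT by 0.07 on the log2 scale (SE 0.07, 95% CI -0.083 to 0.22, limma adjusted p = 0.588). The SD within a genotype was 0.054, and only 2.65% of probes of similar brightness, the upper tertile, had a lower one. The other 2 *Gata6* probes gave -0.05 (A_52_P176245) and -0.0089 (A_52_P590175).

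*Nkx2-5*, the homeodomain factor that marks cardiac progenitors and is still needed in late muscle cells for conduction genes, has 1 probe. The WT hearts read 4.13, 4.16, 4.04 and 4.11 and the SIRT1 KO hearts 4.35, 4.20, 4.23 and 4.05. Of the SIRT1 KO hearts, replicates 1, 2 and 3 were above every WT heart and replicate 4 was near the lowest. The means differed by 0.10 (SE 0.08, 95% CI -0.082 to 0.28, limma adjusted p = 0.509).

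*Tbx5* codes for the T-box activator whose haploinsufficiency causes the septal defects of Holt-Oram syndrome, and its transcript is richer in the atria than in the ventricles. The brightest probe (A_52_P523712) read 1.54, 1.65, 1.46 and 1.59 in the WT hearts and 1.28, 1.73, 1.09 and 1.53 in the SIRT1 KO hearts. The SIRT1 KO hearts spread far more widely and held both the highest value, in replicate 2, and the lowest, in replicate 3. The log2 fold change was -0.15 (SE 0.13, 95% CI -0.45 to 0.15, limma adjusted p = 0.543). Its SD within a genotype was 0.21, above that of 92% of probes in the upper tertile of brightness. The dimmer probe (A_51_P469338) moved with it across hearts (r = 0.66 after the genotype means were subtracted, 8 arrays) and gave -0.21 (SE 0.17, limma adjusted p = 0.513).

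In each genotype *Tbx5* was highest in the heart with the highest atrial markers. The mean log2 signal of 8 atrial markers other than *Tbx5* (*Myl7*, *Myl4*, *Nppa*, *Sln*, *Nr2f2*, *Bmp10*, *Gja5* and *Stard10*) was 3.11, 3.90, 3.09 and 3.18 in the WT hearts and 2.71, 3.73, 3.004 and 2.94 in the SIRT1 KO hearts. Replicate 2 was the highest of each genotype in these markers and in *Tbx5*. The order of the other hearts did not match throughout. SIRT1 KO replicate 3 was next highest of its genotype in these markers and the lowest in *Tbx5*. After the genotype means were subtracted, *Tbx5* correlated with the atrial markers at r = 0.66 and with 8 ventricular markers at r = -0.85 over the 8 hearts, which share arrays and scaling. The dimmer *Tbx5* probe had r = 0.67 and -0.69 with these lists. Such ties were not particular to *Tbx5*. With the atrial markers the brightest probes of *Myocd* and *Hand2* had r = 0.61 and 0.54. Those of *Hand1* and *Gata6* had r = -0.78 and -0.76. In whole hearts fewer cells of a type and less RNA per cell cannot be told apart. Of the 9 atrial markers tested, *Tbx5* among them, 8 were lower in the SIRT1 KO hearts and none passed the threshold. The median change of the 9 was -0.24 on the log2 scale, and their summed level was 477 to 724 times the 75th percentile in the WT hearts and 334 to 709 in the SIRT1 KO hearts. Without both replicates 2 the log2 fold change of *Tbx5* was -0.23 (limma adjusted p = 0.482).

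**Figure D3:**
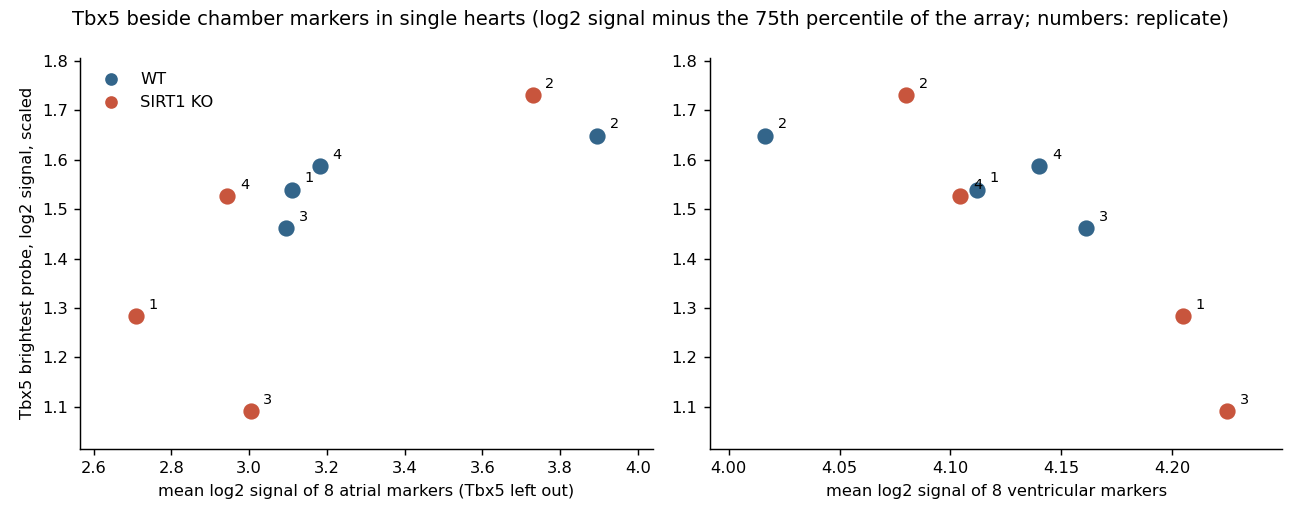
*Tbx5* on its brightest probe (vertical axis) against the mean log2 signal of 8 atrial markers without *Tbx5* (left) and of 8 ventricular markers (right) in 4 WT (blue) and 4 SIRT1 KO (red) hearts, all minus the 75th percentile of the array and numbered by replicate. Both replicates 2 lie at the upper right on the left, and the points fall from left to right in the right panel (r = -0.85 within genotypes).

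*Tbx20*, which restrains *Tbx2* and keeps adult muscle cells working, had the closest means of the 10 brightest probes. On its brightest probe (A_51_P427619) the WT hearts read 1.35, 1.66, 1.51 and 1.34 and the SIRT1 KO hearts 1.28, 1.43, 1.47 and 1.63. The ranges nearly coincide, and the log2 fold change was -0.01 (SE 0.10, 95% CI -0.25 to 0.22, limma adjusted p = 0.958). A second bright probe (A_52_P429876) gave -0.02 (SE 0.08, limma adjusted p = 0.904). Its dim remaining probe (A_51_P445173) gave 0.18 (SE 0.16, limma adjusted p = 0.545) and ran against the brightest one across hearts (r = -0.42 within genotypes, 8 arrays).

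The HAND proteins are basic helix-loop-helix factors, HAND1 mainly of the left ventricle and outflow tract and HAND2 mainly of the right ventricle, epicardium and endocardium. *Hand1* (A_51_P342549) read -2.31, -2.95, -2.39 and -2.48 in the WT hearts and -2.03, -2.45, -2.57 and -2.28 in the SIRT1 KO hearts. WT replicate 2 was the lowest of the 8 and SIRT1 KO replicate 1 the highest, with the rest mixed. The SIRT1 KO mean was 0.20 above that of WT (SE 0.16, 95% CI -0.17 to 0.56, limma adjusted p = 0.517).

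*Hand2* on its brightest probe (A_51_P147850) read -0.82, -0.58, -0.59 and -0.62 in the WT hearts and -0.94, -0.74, -0.79 and -0.75 in the SIRT1 KO hearts. WT replicates 2, 3 and 4 were above every SIRT1 KO heart, and WT replicate 1 was among them. The log2 fold change was -0.15 (SE 0.08, 95% CI -0.34 to 0.042, limma adjusted p = 0.342). The other *Hand2* probe (A_52_P420479) gave 0.02 (SE 0.10, limma adjusted p = 0.944). The 2 probes changed by amounts 0.17 apart, and this difference had the smallest p of the 8 pairs of probes of one gene (exact two-sided permutation test p = 0.0571, adjusted p = 0.343).

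*Mef2c* codes for a MADS-box factor that is needed for the right ventricle and drives muscle structural genes. It has 1 probe, which read 1.83, 1.90, 1.63 and 1.72 in the WT hearts and 1.63, 1.52, 1.68 and 1.81 in the SIRT1 KO hearts. The genotypes overlapped over most of their range, and SIRT1 KO replicate 2 was the lowest. The means differed by -0.11 (SE 0.09, 95% CI -0.32 to 0.094, limma adjusted p = 0.509). Without scaling between arrays *Mef2c*, the brightest *Hand2* probe and the dimmer *Gata4* probe passed the threshold, at -0.33, -0.37 and -0.57 (limma adjusted p = 0.0497, 0.0281 and 0.0192), where 24.8% of all tested probes passed it.

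*Srf*, the gene whose CArG boxes are printed above, read 4.21, 4.02, 3.80 and 4.07 in the WT hearts and 4.34, 4.11, 4.15 and 3.81 in the SIRT1 KO hearts. The lowest value of each genotype, in WT replicate 3 and SIRT1 KO replicate 4, was nearly the same, and so was the spread. The SIRT1 KO mean was 0.08 above that of WT (SE 0.13, 95% CI -0.21 to 0.37, limma adjusted p = 0.756).

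*Myocd* on its brightest probe (A_51_P469942) read 1.69, 2.19, 1.93 and 1.89 in the WT hearts and 1.74, 1.86, 1.80 and 1.96 in the SIRT1 KO hearts. The WT hearts held both the lowest and the highest value, in replicates 1 and 2. The means differed by -0.08 (SE 0.11, 95% CI -0.33 to 0.16, limma adjusted p = 0.696). The second probe (A_52_P557424) gave 0.04 (SE 0.12, limma adjusted p = 0.863), and across hearts the 2 probes ran against each other (r = -0.53 within genotypes, 8 arrays).

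**Figure D4:**
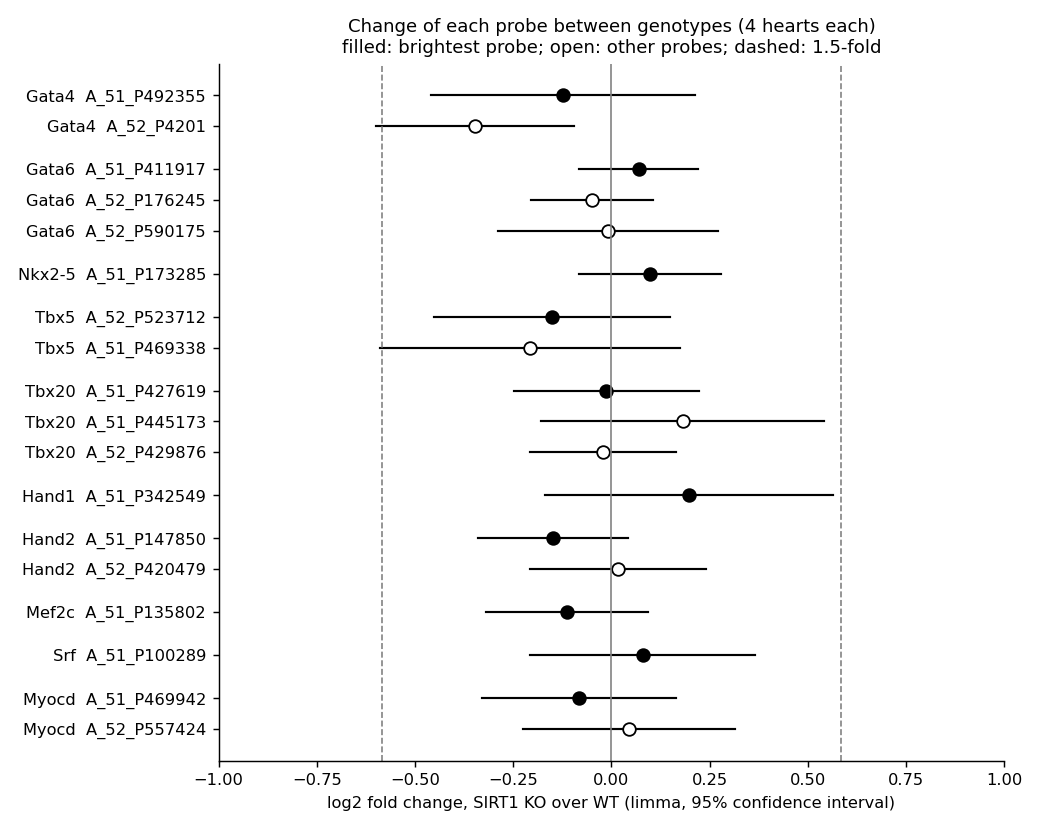
Log2 fold change of SIRT1 KO over WT with its 95% confidence interval from limma for the 18 probes of the 10 factors (4 hearts per genotype). Filled points are the brightest probe of a gene, open points its other probes and dashed lines a change of 1.5-fold. Every interval but that of the dimmer *Gata4* probe crosses 0.

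Pairs of factors that act together were also set against each other within each array, where the scaling cancels, and only the change of the log2 difference between genotypes was read. The difference of *Nkx2-5* and *Mef2c* changed by 0.21, with 2.30, 2.26, 2.41 and 2.39 in the WT hearts and 2.71, 2.68, 2.55 and 2.25 in the SIRT1 KO hearts. Replicates 1, 2 and 3 of the SIRT1 KO hearts were above every WT heart and replicate 4 was below every one (exact two-sided permutation test p = 0.143). Without SIRT1 KO replicate 4, the only heart against this order, the change was 0.31. The genotypes then cannot overlap, so the exact two-sided permutation test gives by construction the smallest p that 3 against 4 allow, 0.0286. *Hand1* against *Hand2* changed by 0.35 (p = 0.2), *Gata4* against *Gata6* by -0.19 (p = 0.314), *Srf* against *Myocd* by 0.16 (p = 0.457) and *Tbx5* against *Tbx20* by -0.14 (p = 0.486) in the same exact test, and each of the 5 had an adjusted p of 0.486.

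From heart to heart some factors moved together and others in opposite directions. After each genotype's mean was subtracted, the correlations of the 45 pairs of factors over the 8 hearts ran from -0.86 to 0.95, with 6 pairs above 0.7, 6 below -0.7 and the others between. How often pairs among all probes reach such values was not computed, so these counts do not set the factors apart. *Srf* moved with *Gata4* (r = 0.95) and *Nkx2-5* (r = 0.90), and *Gata4* with *Nkx2-5* (r = 0.79). A second group held *Tbx20*, *Myocd* and *Hand2*, with r = 0.86 for *Tbx20* and *Myocd*, 0.79 for *Hand2* and *Myocd* and 0.70 for *Hand2* and *Tbx20*. Between the groups the sign was opposite, with r = -0.86 for *Gata4* and *Tbx20*, -0.78 for *Gata4* and *Hand2* and -0.76 for *Hand2* and *Srf*. WT replicate 1 and SIRT1 KO replicate 1 were above the mean of their genotype in *Srf* and *Gata4* and below it in *Hand2*, *Tbx20* and *Myocd*. SIRT1 KO replicate 4 showed the reverse.

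These correlations describe 8 arrays that share their scaling and, within a genotype, a slide. Of 25534 other probes 0.11% had a higher correlation with *Srf* than the brightest *Gata4* probe, and 0.654% a higher one than *Nkx2-5*. For the dimmer *Gata4* probe this share was 22.9%. A lower correlation with *Srf* than the brightest probes of *Hand2*, *Tbx20* and *Myocd* was held by 3.27%, 3.6% and 10.7% of probes. Second probes did not always follow. The dimmer *Gata4* probe had r = 0.42 with *Srf*, the second *Hand2* probe -0.29 against -0.76 for the brightest, and the second *Myocd* probe -0.051 against -0.58. The bright second probe of *Tbx20* had -0.81, near the -0.75 of the brightest.

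**Figure D5:**
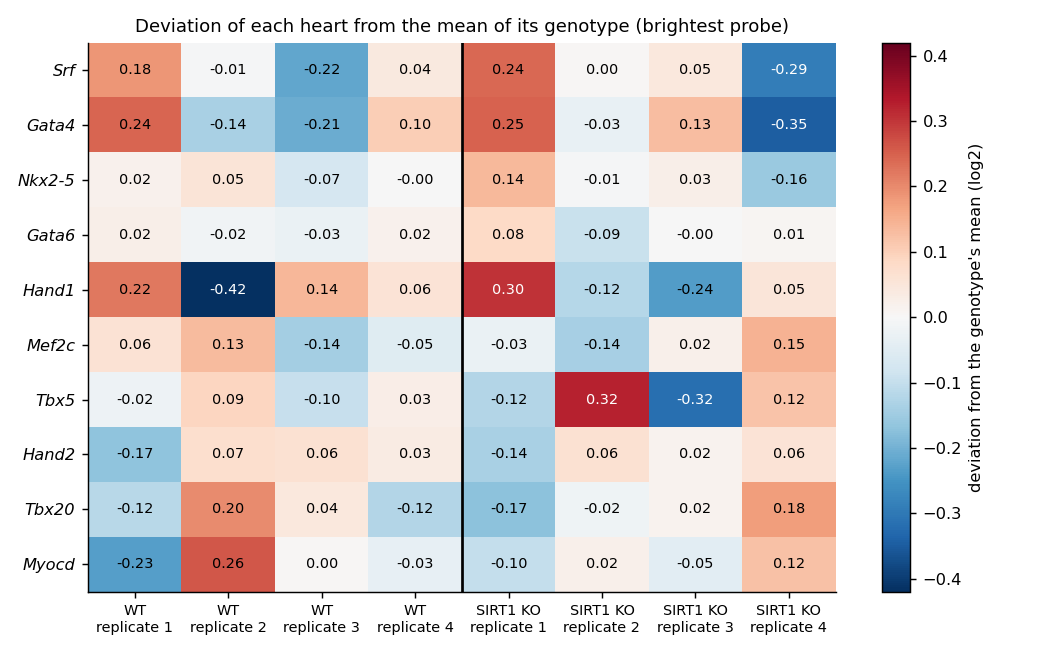
Deviation of each heart from the mean of its genotype (log2, colour and printed value) for the brightest probe of the 10 factors, in 4 WT and 4 SIRT1 KO hearts on either side of the black line. In replicate 1 of both genotypes *Srf* and *Gata4* at the top are high and *Hand2*, *Tbx20* and *Myocd* at the bottom low, and SIRT1 KO replicate 4 shows the opposite.

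Cell and tissue markers place these values. In the SIRT1 KO hearts 8 of 10 cardiomyocyte markers were higher (median log2 fold change 0.10), as were 6 of 8 ventricular (0.06), 5 of 9 smooth muscle (0.01) and 5 of 9 macrophage markers (0.02). In the same hearts 10 of 12 endothelial (-0.12) and 9 of 13 epicardial and fibroblast markers (-0.05) were lower. At an unadjusted p under 0.05 by limma there were 3, 0, 2, 2, 1 and 4 of these in this order, where 20.4% of all named genes passed. None of them passed the adjusted threshold, nor did the single lung and the 2 thymus markers that were tested. Of 5 erythroid markers tested, 1 passed it, the embryonic globin *Hbb-y* (0.92, limma adjusted p = 0.00783), where 4.58% of all named genes did. All 8 liver markers tested were higher in the SIRT1 KO hearts, with a median log2 fold change of 1.32 and none past the threshold. Their summed level was 11.3 to 27.6 times the 75th percentile in the WT hearts and 13.3 to 118 in the SIRT1 KO hearts, highest in replicates 1 and 4, and *Apob*, *Ttr*, *Serpina1a*, *Serpina1b* and *Hnf4a* were not among those tested. Without these 2 hearts 0 of the 18 factor probes passed the threshold, as without both replicates 2, the hearts of highest atrial signal. Across hearts, within genotypes, the 162 correlations of the 18 probes with 9 marker lists ran from -0.89 to 0.88 with a median of 0.032, and 6 were above 0.7 and 11 below -0.7. How often other probes reach such values with these lists was not computed. The highest was *Hand1* with the erythroid markers and the lowest a *Gata6* probe (A_52_P590175) with the endothelial markers. Probes of 1 gene did not always go the same way, as for *Gata6* with the liver markers (0.77, -0.14 and -0.25) and *Myocd* with the endothelial markers (0.84 and -0.52). The part of these tissues in the factors' values was not tested.

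The genes around the 10 factors were followed on the brightest probe of each, where 4.58% of all 13594 named genes passed the threshold. Of 38 other cardiac transcription factors and cofactors 33 were tested, 1 rose and 1 fell, and their median log2 fold change was 0.01. *Smyd1*, a MEF2C target that codes for a histone methyltransferase of muscle, rose by 0.41 (SE 0.10, limma adjusted p = 0.0432). It read 2.76 to 3.04 in the WT hearts and 3.21 to 3.48 in the SIRT1 KO hearts. When single hearts were dropped the change ranged from 0.36 to 0.46, and it passed only without WT replicate 1. The call was also lost with median scaling (0.28, limma adjusted p = 0.123), without scaling (0.19, limma adjusted p = 0.17), with no filter on dim probes (limma adjusted p = 0.0874) and by the methods' t-test (adjusted p = 0.0852), and it passed in 9 of 22 alternatives.

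Of 34 target genes of these factors in heart muscle, all 34 were tested, 0 passed the threshold and 7 had an unadjusted p under 0.05 by limma, where 20.4% of all named genes did. By the methods' t-test 0 passed as well. In SIRT1 KO 20 of them were higher and 14 lower, and the median change was 0.06. Smallest in p was *Xirp2*, an actin-binding protein of the intercalated disc and a MEF2 target, at -0.58 (SE 0.19, limma adjusted p = 0.119). On its probe the genotypes did not overlap.

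Among the 24 smooth-muscle and cytoskeletal SRF targets 22 were tested and 1 passed. This was *Flna*, which codes for an actin-crosslinking filamin, with 5.40 to 5.49 in the WT hearts and 5.67 to 5.94 in the SIRT1 KO hearts, which is a rise of 0.34 (SE 0.08, limma adjusted p = 0.0406). When single hearts were dropped it passed only without SIRT1 KO replicate 3 or replicate 4. The call was also lost with median scaling (0.21, limma adjusted p = 0.108), without scaling (0.12, limma adjusted p = 0.394), with no filter on dim probes (limma adjusted p = 0.0842) and by the methods' t-test (adjusted p = 0.0561), and *Flna* too passed in 9 of 22 alternatives. *Actb*, cytoplasmic beta-actin, was next at 0.35 (SE 0.09, limma adjusted p = 0.0735). The median of the list was -0.03, with 9 genes higher and 13 lower. The 5 targets whose CArG boxes are printed above had log2 fold changes of 0.36 for *Acta1* (skeletal alpha-actin, limma adjusted p = 0.0912), 0.21 for *Vcl* (vinculin), 0.07 for *Cnn2* (calponin 2), 0.03 for *Actg1* (gamma-actin) and -0.11 for *Myl9* (a smooth muscle regulatory light chain). They were chosen by sequence and none passed the threshold.

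The immediate early genes, which SRF drives with ternary complex factors and not with myocardin, gave 10 tested of 12, with 0 past the adjusted threshold and 0 at an unadjusted p under 0.05 by limma. *Srf*, itself an immediate early gene, is 1 of these 10 and is counted here as well as among the factors. Their log2 fold changes ran from -0.17 to 0.14 with a median of 0.03. *Ier2* at -0.17 (SE 0.09, limma adjusted p = 0.323) and *Mcl1* at 0.11 (SE 0.06, limma adjusted p = 0.372) had the smallest p.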

How the data were processed

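RNA of 4 WT and 4 SIRT1 KO hearts (500 ng each) was measured on Agilent one-color arrays. The authors deposited the intensity of each spot as Feature Extraction wrote it (version 12.0.0.7 in the file headers; the methods name another), after background subtraction and with no scaling between arrays. The deposited table of the series equals these intensities in 100% of spots. Here log2 of the deposited processed intensity was taken and each array's 75th percentile over non-control spots subtracted. Control and outlier spots were left out and the spots of a probe averaged. Accessions were matched to RefSeq names, which named 28223 of 41174 probes (68.5%).

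The 25616 probes that cleared background on 4 or more of the 8 arrays were fitted with limma 3.58.1 in R 4.3.3 (lmFit, eBayes), Benjamini-Hochberg at 0.05. Between 24497 and 26739 probes per array were well above background. In simulated arrays, 200 of 25535 probes were changed by a log2 fold change of 1 and 85.5% were recovered. Smaller changes, such as those of the factors, and effects of slide or scan day were not simulated. Single values were compared with exact permutation tests, whose smallest two-sided p is 0.0286. A gene with several probes is given by its brightest, the one of highest mean signal over the 8 arrays, in the lists. Normexp was run on the median pixel signal with offset 50. The labels do not say whether hearts share a litter, so p-values measure the spread between these hearts.

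Named genes are all members, *Sirt1*, each listed gene past the threshold or else the 2 of smallest p, the 3 genes most like the member probe of smallest p, and, added later, the 5 SRF targets with a CArG box. Some genes that this rule names are not reported here. The members, the gene and marker lists and the tests were chosen with earlier results of these data known. Promoters were searched on both strands. Python 3.11.15, numpy 2.4.6, pandas 2.3.3, scipy 1.17.1 and matplotlib 3.10.9 were used.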

Additional observations from a re-analysis of the deposited data

Results flagged for a closer look

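In 3 of 36 groups of 4 hearts (18 probes in each genotype), 1 heart stood apart from the other 3 by more than Dixon's 95% limit, which chance exceeds in about 1 in 20 groups. On the brightest *Hand2* probe (A_51_P147850), WT replicate 1 was the lowest WT heart at -0.82. On the brightest probes the same heart held the lowest WT value of *Myocd* and the highest of *Srf* and *Gata4*. On the second *Myocd* probe (A_52_P557424) WT replicate 2 was the lowest at -0.67, and WT replicate 1 read -0.35. On the dimmest probe of *Tbx20* (A_51_P445173), WT replicate 4 was the highest WT heart at -3.59 and SIRT1 KO replicate 3 the lowest SIRT1 KO heart at -4.14. On the brightest *Tbx20* probe neither of these hearts stood apart.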

How the results depend on the processing

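The count of 0 of 18 factor probes past the threshold held under cyclic loess, normexp, both other filters on dim probes and the methods' t-test. It also held with array weights, limma-trend, the replicate block and each heart left out. The same was seen without the high-liver or the high-atrial hearts, which were chosen after seeing the data. The series table holds the same intensities, so it repeats the main result by construction and is no separate check. It is 1 of the 22 alternatives counted above. The count of factor probes was 1 with median scaling (7.43% of all probes) and quantile normalization (4.12%) and 3 without scaling (24.8%), where 2 of 10 genes passed on the brightest probe. Arrays of 4 hearts per genotype and, for dim probes, a signal near the local background limit these results.

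The other factors and cofactors (2 passing) gave 3 without scaling, with quantile normalization, with normexp and with array weights, 1 with no filter on dim probes, 0 by the methods' t-test, 1 to 3 with a heart left out, and 1 without the high-liver or the high-atrial hearts. The heart targets (0) gave 2 without scaling, 2 with normexp and 2 with the mean of all probes of a gene. The smooth-muscle and cytoskeletal SRF targets (1) gave 4 without scaling, 3 with normexp, 0 with no filter, 0 by the t-test, 2 with array weights, 2 with limma-trend, 0 to 1 with a heart left out, and 0 without the high-liver or the high-atrial hearts. The immediate early targets (0) gave 1 without scaling.

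No label ties same-numbered hearts to a litter or day, and their deviations correlated at 0.20, 0.21, 0.056 and 0.14, so they were not treated as pairs, although each WT heart correlated best with its own number. With the replicate block 0 factor probes passed, all probes gave 1185 calls, and the SRF targets went from 1 to 0 (*Flna*, limma adjusted p = 0.079). *Sirt1* missed the threshold as well (limma adjusted p = 0.064). The block left the other counts given above as they were.

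Small log2 fold changes turned sign. Median scaling shifts log2 fold changes by about -0.13 and no scaling by about -0.22 (medians over all probes), which turns small rises negative by construction. The cause of the other reversals was not tested. With median scaling *Gata6* (A_51_P411917) was -0.064, *Nkx2-5* -0.034, *Hand2* (A_52_P420479) -0.12, *Srf* -0.054, *Myocd* (A_52_P557424) -0.089 and *Mcl1* -0.025. Without scaling the same were -0.15, -0.12, -0.20, -0.14, -0.18 and -0.11, with *Hand1* at -0.023 and *Tbx20* (A_51_P445173) at -0.038. Quantile normalization gave -0.028 for *Hand2* (A_52_P420479), 0.0035 for *Tbx20* (A_51_P427619) and 0.0020 for A_52_P429876, and cyclic loess gave -0.0097, 0.010 and 0.00050. Normexp gave *Gata6* 0.0095 (A_52_P176245) and 0.29 (A_52_P590175), *Tbx20* 0.040 (A_51_P427619) and *Srf* -0.073. Without the high-liver hearts *Gata6* (A_52_P590175) was 0.10. Without the high-atrial hearts *Hand2* (A_52_P420479) was -0.022, *Tbx20* (A_51_P427619) 0.059 and *Myocd* (A_52_P557424) -0.083. With a heart left out, *Gata6* (A_52_P590175) ran from -0.12 to 0.066, *Hand2* (A_52_P420479) from -0.066 to 0.069, *Tbx20* from -0.072 to 0.053 (A_51_P427619) and -0.064 to 0.023 (A_52_P429876), *Myocd* from -0.16 to 0.0036 (A_51_P469942) and -0.066 to 0.13 (A_52_P557424), and *Srf* from -0.00067 to 0.18.

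The difference in change of the brightest and another probe reversed under normexp for *Gata4* (-0.065), *Gata6* (A_52_P590175, -0.23) and *Tbx5* (-0.19). With a heart left out it ran from -0.038 to 0.14 for *Tbx5*, -0.040 to 0.082 for *Tbx20* (A_52_P429876), -0.23 to 0.070 for *Myocd* and 0.10 to 0.16 for *Gata6* (A_52_P176245), past the threshold unadjusted without 1 heart. *Nkx2-5* against *Mef2c* ran from 0.16 to 0.31.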
